A study of Homo sapiens with 12 samples.

Results

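The 33 genes described here code for the enzymes of glycolysis and its direct regulators (21 genes) and for the oxygen-sensing system and well-known genes it induces (12 genes). They were taken as a fixed list of symbols from the deposited gene counts, out of 15414 genes listed in either compartment. All 33 were listed in cells (of 15381 genes) and 32 in exosomes (of 11973 genes), with ANKRD37 not listed in exosomes.

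Glycolysis converts glucose to pyruvate in the cytosol, and lactate dehydrogenase then turns pyruvate to lactate when it is not passed to the mitochondria. In low oxygen the transcription factor subunit HIF1A escapes hydroxylation by the EGLN enzymes, pairs with ARNT and induces many glycolytic genes together with VEGFA, CA9, BNIP3 and others. The adult heart burns mainly fatty acids, and a shift towards glucose use is a known trait of the hypertrophied heart, while cultured cell lines are in general strongly glycolytic.

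RNA came from AC16, an established human cell line derived by fusing adult ventricular cardiomyocytes with transformed fibroblasts, and from exosomes, small vesicles released into the medium. Each compartment had 3 libraries of a group named Con and 3 of a group named Ang, 4 groups in all. Neither name is written out, no dose, time or oxygen level is given, and the series was made to study exosomal RNA of hypertrophic cardiomyocytes. All libraries are of the same line, and whether a group's 3 libraries were grown apart is not stated: the p-values thus reflect how far those libraries differ, which can be technical. Cell and exosome libraries were extracted and made with different kits, so compartment and kit cannot be told apart in any comparison between them. In these bulk samples, fewer vesicles or cells of a kind and less RNA in each cannot be told apart.

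The cell libraries held 9202471 to 11212674 gene reads, those of Con exosomes 717263 to 745311 and those of Ang exosomes 535442 to 587783. Levels are given as CPM, counts scaled to library size. A count of 3 reads was worth 0.268 to 0.326 CPM in cells and 4.03 to 5.603 CPM in exosomes. Of 15 cardiomyocyte markers 9 were listed in cells, summing to 31.8 to 39.4 CPM, and TNNC1, MYH6, MYH7, MYL2, MYL7 and TBX5 were not listed. All 9 fibroblast and stroma markers were listed and summed to 4496 to 5290 CPM in cells and 2862 to 3156 CPM in exosomes, where 5 of the 9 (COL3A1, DCN, LUM, COL1A2 and COL1A1) were called lower than in cells. Their part in the differences between exosomes and cells was not tested. All 7 vesicle markers were listed, at a summed 1215 to 1282 CPM in cells and 723 to 840 CPM in exosomes, and none was called higher in exosomes while FLOT1 and PDCD6IP were called lower. Blood and serum markers reached at most 0.535 CPM in cells and 38.9 CPM in Con exosomes, and 0 in Ang exosomes. Immune markers summed to 12.7 to 69.2 CPM in cells, 15.3 to 86.5 in Con exosomes and 3.60 to 172 in Ang exosomes. Of the 5 immune markers, 3 were listed in cells and 1 in exosomes. All these marker sums use raw library totals.

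The genes together took 1.14% ± 0.0214 (SD, n = 6) of gene reads in cells and 1.55% ± 0.0351 (n = 6) in exosomes. The glycolysis genes took 0.998% ± 0.0227 in cells and 1.44% ± 0.0432 in exosomes, and the hypoxia genes took 0.138% ± 0.00383 and 0.113% ± 0.0115. Taken from raw library totals, without trimmed mean scaling, the ranges of all 3 shares were separate in the 6 cell and 6 exosome libraries. The lower hypoxia share rested on HIF1A, which had 853 exosome reads where its level in cells would have given 2076. Pooled without HIF1A, the other hypoxia genes were not lower in exosomes by raw totals. GAPDH, which oxidises glyceraldehyde 3-phosphate and is widely used as a reference transcript, supplied 19.5% ± 0.438 of the genes' reads in cells and 33.3% ± 1.10 in exosomes.

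**Figure D1:**
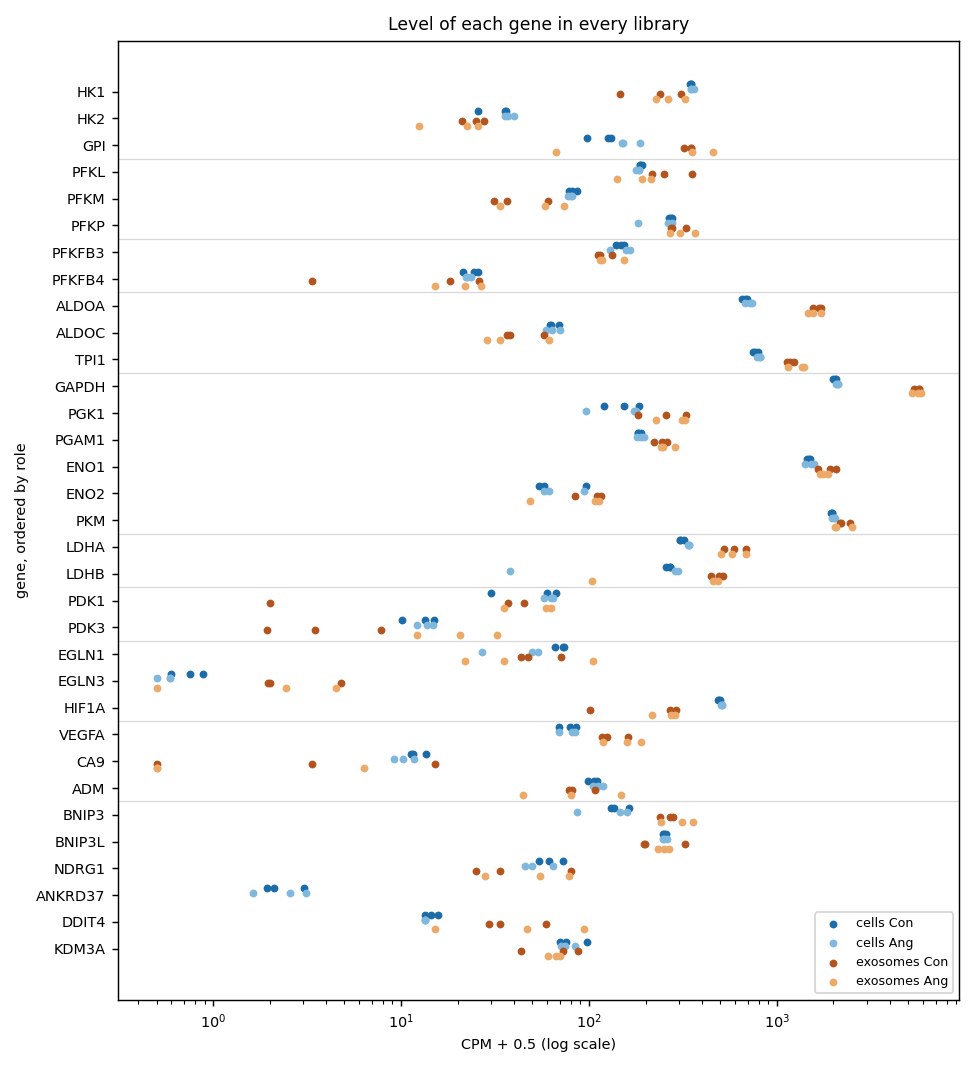
Level of each gene in each of the 12 libraries, as CPM with trimmed mean scaling plus 0.5 on a log axis, ordered by role; each point is 1 library and colour gives the group. The highest row is GAPDH, at 1999 to 2125 CPM in cells and 5232 to 5857 CPM in exosomes, and the lowest cell values are those of EGLN3 and ANKRD37.

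Per kilobase of transcript, the same 5 enzymes of the steps from aldolase to pyruvate kinase stood highest in both compartments. In cells, GAPDH stood highest at 1103 ± 24.9 CPM per kilobase (SD, n = 6), followed by ENO1 at 836 ± 33.3, PKM at 731 ± 14.2, TPI1 at 638 ± 20.2 and ALDOA at 432 ± 19.8, steps that each exceeded the spread between libraries. In exosomes, GAPDH reached 2975 ± 127 CPM per kilobase, and ENO1 (1024 ± 83.1), ALDOA (1008 ± 67.0) and TPI1 (1008 ± 92.3) lay within each other's spread, above PKM (822 ± 74.5). HIF1A ranked 8 of 33 in cells, at 128 ± 2.66 CPM per kilobase, and 16 in exosomes, at 61.2 ± 18.6. At the low end of the cells stood EGLN3 at 0.0561 ± 0.0513 and ANKRD37 at 1.67 ± 0.534 CPM per kilobase, and PDK1, HK2, PFKFB4, PDK3 and CA9 lay between 3.97 and 6.66 in cells and between 2.41 and 6.57 in exosomes. Lengths were those of the principal transcript, which is uncertain for PDK1 (14193 bases) and VEGFA (1199 bases, against 14431 for all annotated exons).

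The hypoxia-inducible factors bind DNA at the core letters ACGTG or GCGTG, and the RefSeq table of gene starts on GRCh38.p14 held windows for 30 of the 33 genes, 250 bases before to 50 after the start. On either strand, 28 of the 30 genes (93.3%) held ACGTG or GCGTG, against 52.4% of 27305 genes, and 19 (63.3%) held ACGTG, against 24.9%. Counted by window, since a gene can have several, the share with either was 68.5% of 54 against 48.4% of 35116, and the median GC content of the windows was 68.8% against 58.7%. EGLN3 and PGAM1 held neither. A match is a description of letters and not a bound site, ACGTG is also part of the palindrome CACGTG, which other factors bind and which counts as a match on each strand, and the list was drawn up partly from known targets. Stretches are shown for PGK1 and DDIT4, which were higher in exosomes than in cells in the comparison that follows, and for HK2, which was lower. They lie outside GENCODE exons and read 5′ to 3′ on the plus strand, the strand of all 3 genes, with matches on either strand in capitals. That of PGK1 is chrX:78104022-78104084 (positions -226 to -164 from the start), that of DDIT4 chr10:72273784-72273818 (-140 to -106) and that of HK2 chr2:74835006-74835041 (-164 to -129).
PGK1: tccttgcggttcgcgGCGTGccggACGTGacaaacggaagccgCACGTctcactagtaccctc
DDIT4: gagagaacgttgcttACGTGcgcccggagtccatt
HK2: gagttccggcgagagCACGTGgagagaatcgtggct
Only 1 stretch a gene is shown: over all its windows PGK1 held 4 matches, DDIT4 4 and HK2 9, so such letters were present in genes called in either direction.

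Exosomes were compared with cells over all 12 libraries to ask which of these transcripts took a larger or smaller share of exosomal RNA. Of 21 glycolysis genes 8 were higher in exosomes, led by GAPDH, ALDOA and GPI, and 4 were lower, the hexokinases HK1 and HK2, the muscle-type phosphofructokinase PFKM and the aldolase ALDOC. Of 10 hypoxia genes tested, DDIT4, BNIP3 and VEGFA were higher and HIF1A itself was lower. Of 31 genes tested with edgeR, 11 passed an adjusted p of 0.05 upwards and 5 downwards, beside 37.1% of all 11811 genes (17.6% higher and 19.5% lower). At an unadjusted p under 0.05 there were 18, beside 46.2% of all genes. The genes' median log2 fold change was 0.17 and that of all genes -0.15. At a fold of at least 2, there were 5 higher genes and 1 lower, beside 10.8% and 12% of all genes. The values of all 6 exosome libraries lay outside those of all 6 cell libraries for 8 higher genes (ALDOA, BNIP3, ENO1, GAPDH, LDHA, PGAM1, TPI1 and VEGFA) and 3 lower ones (HIF1A, HK1 and PFKM), beside 23.2% of all genes in either direction.

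These shares depend on the scaling. With raw library totals the median of all genes fell from -0.15 to -0.36, a shift that also took that of these genes to -0.04, and all genes divided into 1546 higher and 3318 lower, against 2082 and 2298 with trimmed mean scaling. The values below are to be read relative to that shift. ENO1 (log2 0.08, adjusted p = 0.335) and PGAM1 (0.21, adjusted p = 0.115) then did not pass, PFKFB3 and CA9 passed as lower, and PKM stood at -0.04 (adjusted p = 0.602). With 3 libraries a side, the Con libraries alone ended the calls of HIF1A (-1.15, adjusted p = 0.0640), PFKM, HK1, HK2, ALDOC, PGAM1 and PGK1, and the Ang libraries alone those of DDIT4 (adjusted p = 0.0540), GPI (0.86, adjusted p = 0.344), ENO1, PGAM1, PGK1, PFKM, HK1, HK2 and ALDOC.

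**Figure D2:**
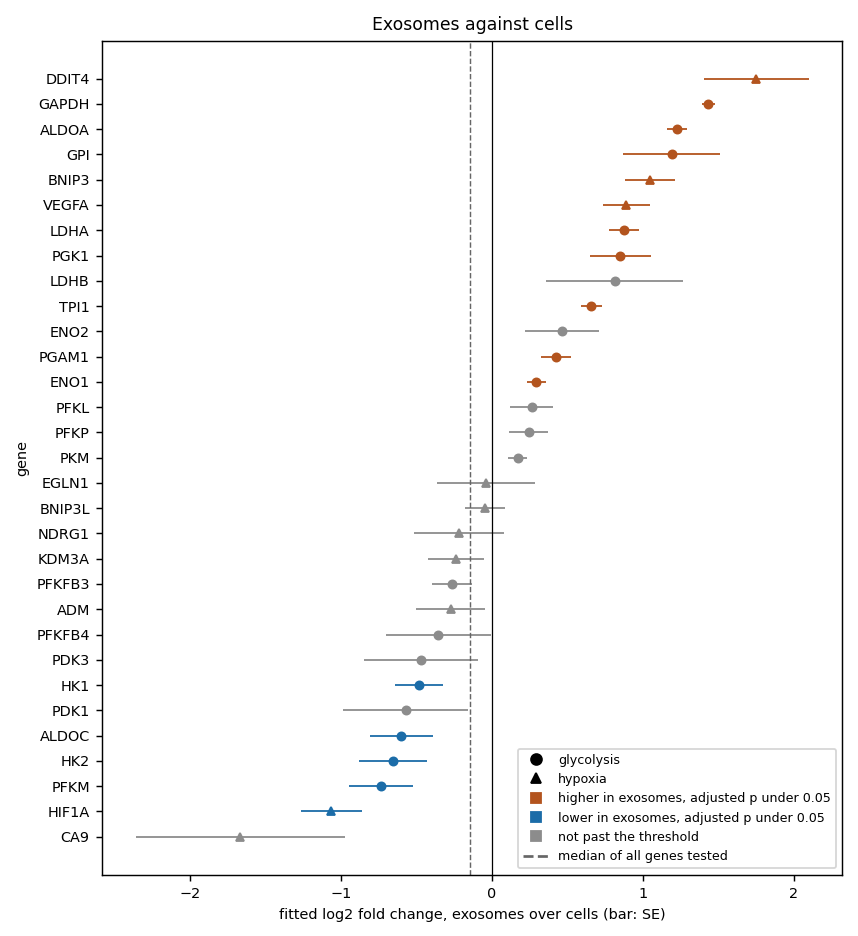
Fitted log2 fold change of exosomes over cells for the 31 genes tested, with the SE as bar, circles for glycolysis and triangles for hypoxia genes, and colour for the side of an adjusted p of 0.05. DDIT4 (1.75) and GAPDH (1.43) stand at the top and CA9 (-1.67, not past the threshold) and HIF1A (-1.06) at the bottom; the dashed line is the median of all genes at -0.15.

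Hexokinases trap glucose in the cell by phosphorylation. HK1, the widespread form, stood at 351, 345 and 347 CPM in Con cells, 349, 361 and 350 in Ang cells, 239, 307 and 146 in Con exosomes and 227, 325 and 264 in Ang exosomes. Every exosome library lay below every cell library, and the fitted log2 fold change was -0.48 (SE 0.158, adjusted p = 0.0292). HK2, the insulin- and hypoxia-responsive form, had 253 to 429 reads in each cell library and 17, 14, 18, 13, 12 and 6 in the exosome libraries (log2 -0.66, SE 0.225, adjusted p = 0.0366). The highest exosome library of HK2, at 27.03 CPM, overlapped the lowest cell library, at 25.1 CPM. Neither call was stable: HK1 passed in 4 of the 12 fits that left out 1 library and HK2 in 5. Each such fit filtered and scaled the genes anew. Those without 1 cell library tested 10238 to 10250 genes, and those without 1 exosome library 11905 to 11910. For every gene in this comparison, the left-out library and the changed set of genes thus cannot be told apart in these fits. HK1 did not pass without any 1 of the cell libraries, Ang exosomes 1 or Ang exosomes 3. HK2 did not pass without any 1 cell library other than Con cells 1, nor without Con exosomes 2 or Ang exosomes 3.

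GPI, which isomerises glucose 6-phosphate to fructose 6-phosphate, went the other way. Its values were 131, 126 and 97.7 CPM in Con cells and 148, 186 and 150 in Ang cells, against 350, 319 and 350 in Con exosomes and 66.0, 457 and 352 in Ang exosomes. All exosome libraries but Ang exosomes 1 were above all cell libraries. The fitted log2 fold change was 1.19 (SE 0.322, adjusted p = 0.0126), and without Ang exosomes 1 it was 1.42 (SE 0.127, adjusted p = 1.94e-05).

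Phosphofructokinase commits the sugar to glycolysis, and its 3 genes differed. PFKM, the muscle form, was at 77.3, 85.4 and 80.6 CPM in Con cells and 80.6, 77.1 and 80.0 in Ang cells, and at 36.0, 30.8 and 60.1 in Con exosomes and 32.998, 73.5 and 58.1 in Ang exosomes. No exosome library reached the lowest cell library (log2 -0.73, SE 0.213, adjusted p = 0.0167), and the call held in all 12 fits that left out 1 library. The liver form PFKL (0.26, SE 0.144, adjusted p = 0.173) and the platelet form PFKP (0.24, SE 0.129, adjusted p = 0.158) did not pass. PFKM therefore made up 13.5% ± 0.987 (n = 6) of phosphofructokinase RNA per kilobase in cells and 7.42% ± 3.07 in exosomes, with ranges of 12.6 to 15.3% and 4.37 to 12.3%. PFKFB3 and PFKFB4, which make the activator fructose 2,6-bisphosphate, had log2 values of -0.26 (SE 0.133, adjusted p = 0.137) and -0.35 (SE 0.346, adjusted p = 0.446).

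Aldolase splits the 6-carbon sugar, and its muscle and brain forms moved apart. ALDOA was at 653, 692 and 676 CPM in Con cells and 717, 673 and 740 in Ang cells, and at 1681, 1720 and 1551 in Con exosomes and 1466, 1723 and 1552 in Ang exosomes. The lowest exosome value was thus well above the highest cell value (log2 1.22, SE 0.0659, adjusted p = 3.78e-08). ALDOC was at 61.2, 68.5 and 62.0 CPM in Con cells, 63.4, 58.8 and 69.2 in Ang cells, 36.0, 57.3 and 37.5 in Con exosomes and 32.998, 60.6 and 28.0 in Ang exosomes. It overlapped between compartments, and its call as lower (log2 -0.60, SE 0.209, adjusted p = 0.0389) held in only 2 of the 12 fits that left out 1 library, those without Con exosomes 2 and without Ang exosomes 2. ALDOA took 93.1% ± 0.295 of aldolase RNA per kilobase in cells and 98.0% ± 0.533 in exosomes (n = 6 each), and the ranges of 92.6 to 93.4% and 97.2 to 98.6% did not overlap. Of the ALDOA exon sequence, 42.3% is shared with the overlapping gene AC093512.2 on the same strand, and the handling of such reads is not given in the sources used here.

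**Figure D3:**
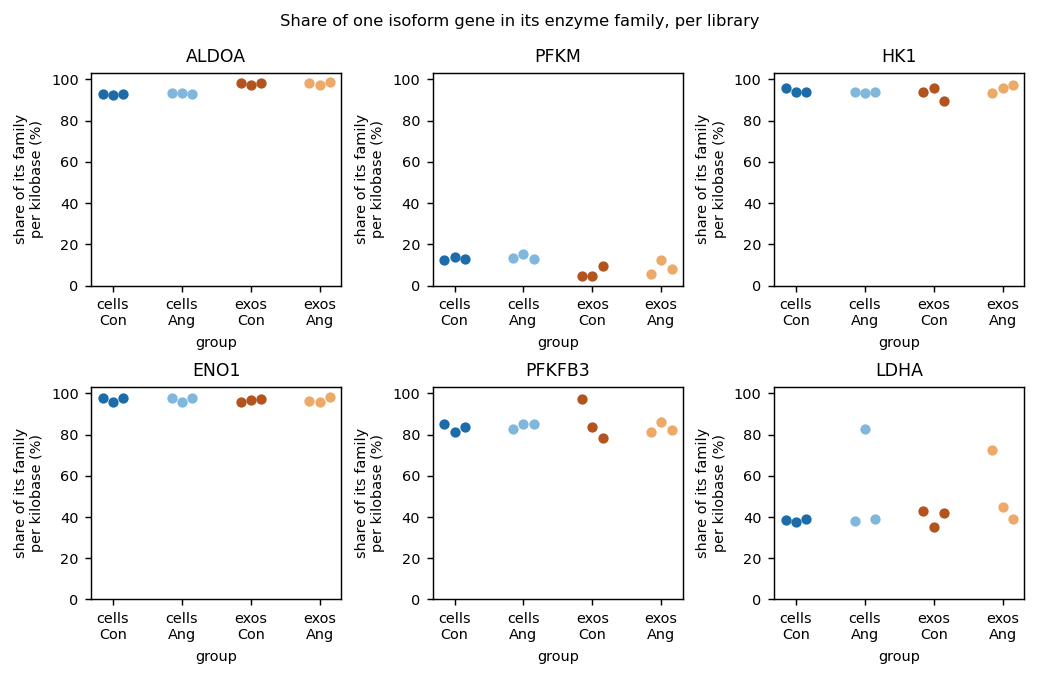
Share of 1 gene in its enzyme family, from reads per kilobase of principal transcript, in each library by group. ALDOA is at 93.1% in cells and 98.0% in exosomes and PFKM at 13.5% and 7.42%, HK1, ENO1 and PFKFB3 keep overlapping ranges, and LDHA shows 1 high library in Ang cells (82.8%) and 1 in Ang exosomes (72.5%).

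The steps from the triose phosphates to pyruvate begin with GAPDH and TPI1. GAPDH was at 1999, 2069 and 2033 CPM in Con cells and 2072, 2109 and 2125 in Ang cells, and at 5709, 5682 and 5347 in Con exosomes and 5647, 5857 and 5232 in Ang exosomes. Its 2.70-fold rise (log2 1.43, SE 0.0444, adjusted p = 3.24e-10) had the 6th smallest p of all 11811 genes. GAPDH has 62 named pseudogenes and shares 14.2% of its exon sequence with AC006064.4 on the other strand, so reads of copies may be counted with it.

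TPI1, which interconverts the triose phosphates, rose by 0.66 (SE 0.0685, adjusted p = 1.39e-05), from 786 ± 24.8 to 1240 ± 114 CPM. PGK1, which makes the first ATP of the pathway, rose by 0.85 (SE 0.199, adjusted p = 0.00527). The mutase PGAM1 rose by 0.42 (SE 0.102, adjusted p = 0.00622) and the enolase ENO1 by 0.29 (SE 0.0645, adjusted p = 0.00359). PKM, the pyruvate kinase, stood at 0.17 (SE 0.0638, adjusted p = 0.0538) and passed in 7 of the 12 fits that left out 1 library, which were those without any 1 cell library other than Ang cells 1 and those without Ang exosomes 2 or 3. PKM also passed in DESeq2 (0.20, SE 0.0642, adjusted p = 0.00444) and with median-of-ratios scaling (0.20, SE 0.0655, adjusted p = 0.0278), against -0.04 with raw library totals. The neuronal enolase ENO2 did not pass (0.46, SE 0.244, adjusted p = 0.156), except without Ang exosomes 3 (adjusted p = 0.0484). Of these 6 genes that code for the steps from GAPDH to pyruvate, 4 rose and none fell, beside 17.6% and 19.5% of all genes, and of the 4 ENO1 and PGAM1 did not pass with raw library totals.

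Lactate dehydrogenase is a tetramer of A and B subunits, of which the B form prevails in the heart. LDHA was at 303, 304 and 321 CPM in Con cells, 338, 336 and 338 in Ang cells, 684, 520 and 592 in Con exosomes and 503, 682 and 577 in Ang exosomes. All exosome libraries were above all cell libraries (log2 0.87, SE 0.0995, adjusted p = 2.88e-05). LDHB was at 258, 270 and 268 CPM in Con cells, 296, 37.6 and 286 in Ang cells, 494, 518 and 444 in Con exosomes and 102.9, 456 and 485 in Ang exosomes. Ang cells 2 and Ang exosomes 1 stood far below the others, and over all 12 libraries LDHB did not pass (log2 0.81, SE 0.454, adjusted p = 0.185), whereas in the Con libraries alone it did (0.88, SE 0.110, adjusted p = 0.00332).

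The pyruvate dehydrogenase kinases PDK1 and PDK3, which hold pyruvate back from the mitochondria, did not pass (log2 -0.57, SE 0.413, adjusted p = 0.299, and -0.47, SE 0.380, adjusted p = 0.354). PDK1 had 31, 25 and 1 reads in Con exosomes and 30, 19 and 31 in Ang exosomes. Its value in Con exosomes 3 was 1.502 CPM, against 66.4, 59.0 and 29.6 CPM in Con cells and 62.7, 63.8 and 56.9 in Ang cells.

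HIF1A was steady in cells, at 498, 488 and 488 CPM in Con and 510, 504 and 512 in Ang. In exosomes it was at 271, 101 and 290 CPM in Con and 287, 217 and 274 in Ang. Every exosome library was below every cell library, a 2.09-fold lower level (log2 -1.06, SE 0.201, adjusted p = 0.00131), and without Con exosomes 2, the lowest library, the value was -0.90 (SE 0.0949, adjusted p = 5.07e-05).

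Of its EGLN hydroxylases in this set, only EGLN1 was tested, and it did not pass. HIF1AN, another hydroxylase of HIF1A and one of the further genes below, was lower in exosomes (log2 -1.36, SE 0.362, adjusted p = 0.0109). EGLN1, the main oxygen sensor, was at 65.1, 72.3 and 73.2 CPM in Con cells and 49.3, 26.6 and 52.9 in Ang cells, and at 43.2, 47.0 and 70.6 in Con exosomes and 21.4, 34.9 and 104 in Ang exosomes. The compartments overlapped throughout (log2 -0.04, SE 0.324, adjusted p = 0.932). EGLN3, a hydroxylase that HIF1A itself induces, was near the limit of counting and was not tested: 1, 4 and 3 reads in Con cells, 0, 1 and 1 in Ang cells, 3, 1 and 1 in Con exosomes and 1, 0 and 2 in Ang exosomes.

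Among the HIF targets that act outside the cell or at its surface, VEGFA, the vascular growth factor, was at 84.5, 69.0 and 79.0 CPM in Con cells and 83.7, 80.6 and 68.9 in Ang cells. In exosomes it was at 124, 160 and 117 CPM in Con and 118, 158 and 188 in Ang. The groups did not overlap between compartments (log2 0.89, SE 0.157, adjusted p = 0.000806). CA9, a carbonic anhydrase that is a sensitive hypoxia marker, had 131, 113 and 133 reads in Con cells and 96, 95 and 127 in Ang cells, but 2, 10 and 0 in Con exosomes and 3, 0 and 0 in Ang exosomes. At the level of the cells, the 3880875 exosome reads would have held 44.7 CA9 reads, against the 15 counted. The fitted log2 value of -1.67 (SE 0.690, adjusted p = 0.0765) did not pass in edgeR with all libraries. It passed without Con exosomes 2 (adjusted p = 0.0100), without Ang exosomes 1 (adjusted p = 0.0273), with raw library totals (-1.88, adjusted p = 0.0424) and in DESeq2 (-1.64, SE 0.510, adjusted p = 0.00380). Of the CA9 exon sequence, 38.5% is shared with ARHGEF39 on the other strand. The vasodilator peptide ADM did not pass (-0.27, SE 0.230, adjusted p = 0.372), except without Ang exosomes 1 (-0.55, adjusted p = 0.0288).

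The intracellular targets were mixed. DDIT4, an inhibitor of mTORC1, was at 13.9, 12.9 and 15.2 CPM in Con cells and 12.9, 12.9 and 13.0 in Ang cells, and at 28.8, 58.7 and 33.03 in Con exosomes and 93.2, 14.7 and 46.1 in Ang exosomes. All exosome libraries but Ang exosomes 2 were above all cell libraries, and the 3.36-fold difference (log2 1.75, SE 0.348, adjusted p = 0.00186) was the largest rise among these genes, from only 8 to 48 reads per exosome library. DDIT4 shares 41.2% of its exon sequence with DDIT4-AS1 on the other strand.

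BNIP3, a mitophagy receptor, was at 136, 131 and 162 CPM in Con cells and 85.6, 160 and 145 in Ang cells, and at 281, 269 and 239 in Con exosomes and 243, 356 and 310 in Ang exosomes. The compartments did not overlap (log2 1.05, SE 0.166, adjusted p = 0.000383), though BNIP3 has 39 named pseudogenes. Its relative BNIP3L (log2 -0.04, SE 0.133), the stress gene NDRG1 (-0.22, SE 0.298) and the histone demethylase KDM3A (-0.24, SE 0.186) did not pass, with adjusted p of 0.816, 0.589 and 0.337. ANKRD37, an ankyrin-repeat HIF target, had 24, 14 and 18 reads in Con cells and 24, 21 and 12 in Ang cells, and at that level the exosome libraries together would have held 7.27 reads, close to the 7 reads below which no gene was listed.

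The genes called higher in exosomes had shorter principal transcripts (median 1830 bases, 11 genes) than those called lower (3605 bases, 5 genes) or not called (2912 bases, 15 genes). Among these are the uncertain lengths of VEGFA (1199 bases, the shortest called higher) and PDK1 (14193 bases, the longest not called). Across the 31 genes Spearman's rho between the log2 fold change and transcript length was -0.47, and between the log2 fold change and the level in cells 0.37. Across 11799 genes with a known length the same coefficients were -0.22 and -0.08. These are descriptions across genes, which share libraries and kits and are not independent replicates, and the part of length in the differences was not tested.

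Ang was compared with Con within each compartment to ask whether the pathway responded to the labelled condition. No gene tested passed the threshold in either compartment. In cells, 32 were tested with edgeR and 0 passed (0% of 13331 genes did), and DESeq2 also called 0. At an unadjusted p under 0.05 there were 3 (GPI, LDHA and EGLN1), beside 6.12% of all genes. The median log2 fold change of the genes was 0.02, and that of all genes was -0.00.

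**Figure D4:**
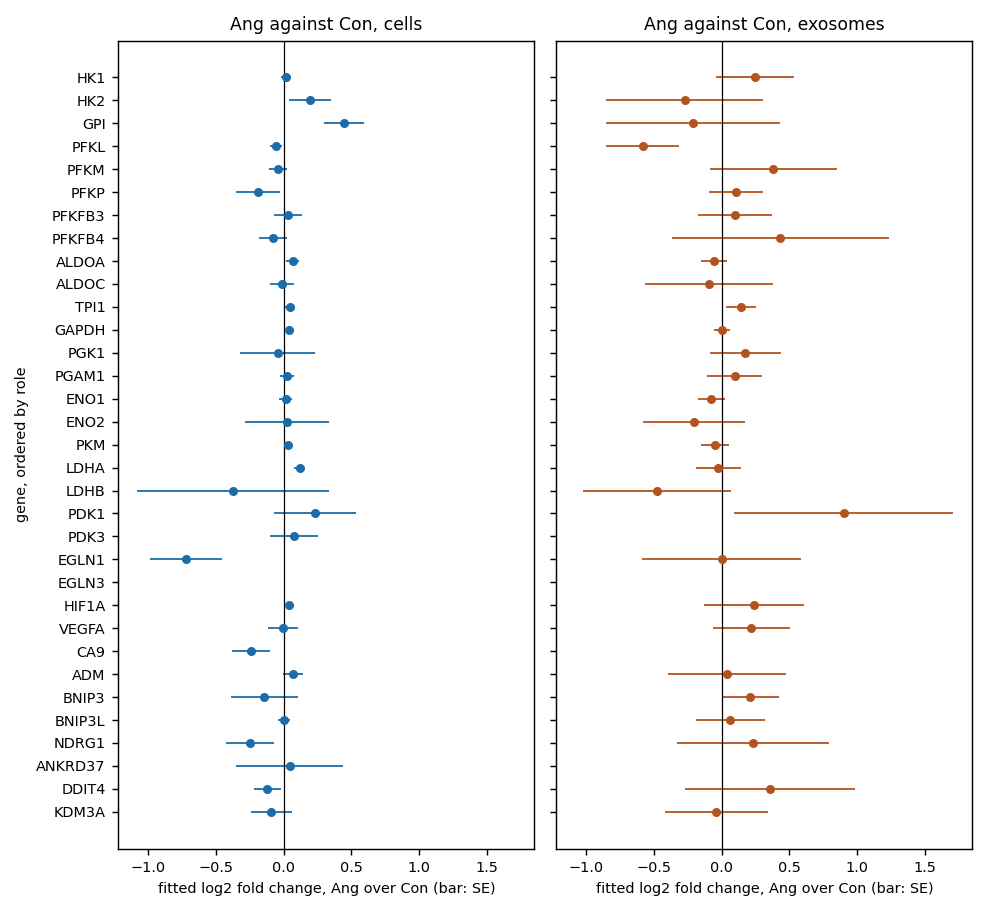
Fitted log2 fold change of Ang over Con in cells (left) and exosomes (right) for the genes tested there, with the SE as bar, ordered by role. No gene passed an adjusted p of 0.05 in either compartment; EGLN1 (-0.72) and GPI (0.44) lie farthest from 0 in cells and PDK1 (0.90) in exosomes, where the bars are wider.

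GPI, with the values given above, was higher in every Ang cell library than in any Con cell library (log2 0.44, SE 0.149, edgeR adjusted p = 0.795). LDHA was also higher in all 3 Ang libraries, by a small step from 303 to 321 CPM to 336 to 338 CPM (0.12, SE 0.0415, edgeR adjusted p = 0.795). EGLN1 was lower in all 3 Ang libraries, with Ang cells 2 the lowest (-0.72, SE 0.263, edgeR adjusted p = 0.795). HIF1A was higher without overlap by a log2 value of 0.04 (SE 0.0341), and PFKL was lower without overlap (-0.05, SE 0.0455). DDIT4 (-0.12, SE 0.0989) was lower without overlap only with CPM scaled within the cells. At the CPM given above, scaled over all 12 libraries, it overlapped, with Con cells 2 at 12.94 and Ang cells 3 at 12.98. In all, with scaling within the cells, 6 of 32 genes did not overlap between the cell groups, beside 13.9% of all genes, and none of the 6 passed the test. In Con cells 2 and Ang cells 2, PGK1 stood lowest of its group (120 and 96.4 CPM, against 152 to 184 in the other cell libraries) and ENO2 highest (95.6 and 93.6 CPM, against 53.4 to 60.6). PGK1 was also lowest in Con exosomes 2 and Ang exosomes 2 (182 and 228 CPM, against 256 to 329 in the other exosome libraries). ENO2 was highest of its group in Ang exosomes 2 but not in Con exosomes 2.

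In exosomes, 29 genes were tested with edgeR and 0 passed, beside 0.0120% of 8327 genes (1 gene, not of this set). None of the 29 reached an unadjusted p under 0.05, beside 3.79% of all genes, and DESeq2 called 0 of them. The smallest p was that of PFKL, at 351, 250 and 216 CPM in Con and 190, 140 and 214 in Ang (log2 -0.58, SE 0.268, edgeR adjusted p = 0.999). PFKL was the only 1 of the 29 without overlap, beside 10.8% of all genes, and its nearest Con and Ang libraries differed by 216 against 214 CPM.

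TPI1 was at 1232, 1130 and 1177 CPM in Con exosomes and 1145, 1402 and 1356 in Ang exosomes (0.15, SE 0.111, edgeR adjusted p = 0.999). PDK1 had the largest fitted value (0.90, SE 0.808, edgeR adjusted p = 0.999), with a single read in Con exosomes 3. In the fits that left out 1 library its value ran from 0.35 to 1.44, and it passed in none of them. The exosome SEs ran from 0.0607 for GAPDH, whose log2 fold change was 0.01, to 0.808 for PDK1.

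The test of the difference between the compartments' Ang responses gave 0 calls among 31 genes with edgeR, beside 0.0254% of all genes (0.00847% with a positive and 0.0169% with a negative difference). At an unadjusted p under 0.05 there was 1, beside 8.22% of all genes. That gene was PDK3, with 145, 100 and 155 reads in Con cells, 114, 144 and 162 in Ang cells, 1, 5 and 2 in Con exosomes and 6, 11 and 16 in Ang exosomes. Its exosome groups did not overlap while its cell groups did, and the fitted difference of the log2 changes was 2.35 (SE 0.754, edgeR adjusted p = 0.501). DESeq2 called it, at 2.38 (SE 0.661, adjusted p = 0.0200), on 1 to 16 reads per exosome library. PFKL followed (-0.54, SE 0.288, edgeR adjusted p = 0.673), and then PFKP (0.28, SE 0.258, adjusted p = 0.869), which was at 268, 272 and 276 CPM in Con cells, 263, 182 and 275 in Ang cells, 273, 327 and 275 in Con exosomes and 268, 305 and 366 in Ang exosomes.

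Single libraries that stood apart touched several of these genes. A library over 4-fold under the median of its compartment occurred in 2.65% of genes in cells and 11.8% in exosomes, counting genes whose median was 20 reads or more. Of the genes described here it was seen for 1 of 31 in cells (LDHB, 7.16-fold low in Ang cells 2) and 3 of 27 in exosomes (LDHB 4.57-fold and GPI 5.30-fold low in Ang exosomes 1, PDK1 27.1-fold low in Con exosomes 3). Without these libraries the mean difference of log2 CPM between exosomes and cells went from 0.99 to 1.40 for GPI, from 0.90 to 0.80 for LDHB and from -0.9995 to -0.24 for PDK1. The LDHA share of lactate dehydrogenase RNA per kilobase was 38.6% ± 0.738 (n = 3) in Con cells and 39.9% ± 4.17 in Con exosomes, but 82.8% in Ang cells 2 and 72.5% in Ang exosomes 1. Of the LDHB exon sequence, 33.4% is shared with AC010197.2 on the same strand. The cause of the low libraries was not tested.

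**Figure D5:**
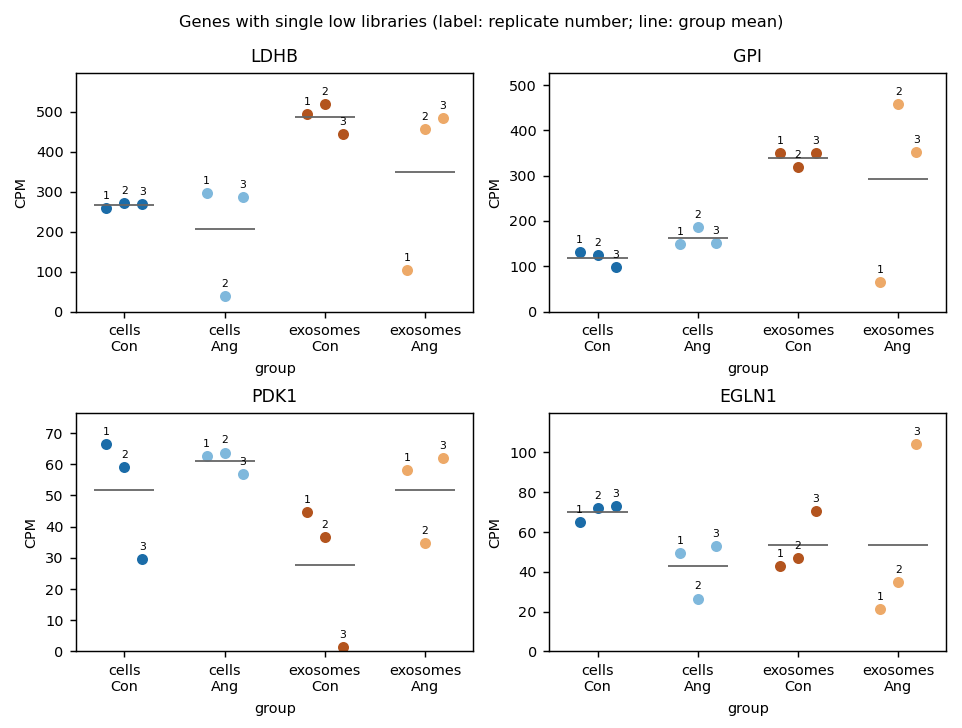
CPM of LDHB, GPI, PDK1 and EGLN1 in each library by group, with the replicate number beside each point and the group mean as a line; axes start at 0. LDHB is low in Ang cells 2 (37.6 CPM) and Ang exosomes 1 (102.9 CPM), GPI in Ang exosomes 1 (66.0 CPM) and PDK1 in Con exosomes 3 (1.502 CPM).

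Of 78 further genes of glucose transport, pyruvate use and the hypoxia response, 60 were tested between exosomes and cells, and 14 were higher and 14 lower, with a median log2 fold change of 0.02, beside 17.6% higher and 19.5% lower and a median of -0.15 over all genes. The counts by group below stand beside the same shares. In glucose and lactate transport, 2 of 6 rose and 3 fell. The glucose transporter SLC2A1 rose (0.50, SE 0.173, adjusted p = 0.0383) and SLC2A3, a high-affinity glucose transporter, fell, from 1148 to 1446 reads in each cell library to 27, 31, 13, 18, 9 and 22 in exosomes (-1.82, SE 0.236, adjusted p = 8.38e-05). Of 10 genes of pyruvate entry to mitochondria, 5 fell, among them PDHB, a subunit of pyruvate dehydrogenase (-1.69, SE 0.390, adjusted p = 0.00477), and 2 rose.

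Of 9 genes of the hypoxia-inducible factor system, 2 rose and 2 fell. EPAS1, the other main oxygen-regulated subunit, rose where HIF1A fell: it had 829 to 1179 reads in each cell library and 184, 97, 137, 91, 92 and 108 in exosomes (1.08, SE 0.159, adjusted p = 0.000229). Their partner ARNT did not pass (0.15, SE 0.194, adjusted p = 0.581). Of 27 other hypoxia-induced genes, 7 rose and 3 fell. MIF, a cytokine, rose by 1.59 (SE 0.103, adjusted p = 2.19e-07) and the secreted glycoprotein STC2 by 1.41 (SE 0.144, adjusted p = 1.19e-05), and the carbonic anhydrase CA12 fell by 1.87 (SE 0.614, adjusted p = 0.0302), with 4, 0 and 7 reads in Con exosomes and 0, 4 and 0 in Ang exosomes. ANGPTL4 and SPAG4 also passed as higher, but on 0 to 5 and 0 to 15 reads per exosome library and at most 16 and 5 per cell library. Of 8 other glycolytic genes, 1 rose and 1 fell, PFKFB2, which had 113 to 193 reads in each cell library, 3, 6 and 0 in Con exosomes and 0 in all 3 Ang exosome libraries. In Ang against Con, 0 of these genes passed in edgeR in cells (65 tested, 8 at an unadjusted p under 0.05, beside 6.12% of all genes) or in exosomes (50 tested, 1 at an unadjusted p under 0.05, beside 3.79%).

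Circular RNAs, read from back-splice junctions, gave little at these loci. Of 5700 circles listed, 10 lay within the annotated spans of 8 of the genes, and each was seen in 1 library only, with 2 to 4 reads. HIF1A was the only gene of the set with a circle in exosomes (chr14:61740833-61741188 on GRCh38, plus strand, 3 reads in Con exosomes 2), and neither this circle's ends nor those of 5 others matched exon ends on both sides. The 4 with both ends at annotated exon ends were in ALDOA, EGLN1, PDK1 and PGK1, and that of PGK1 (chrX:78009102-78020398) also lies within ATP7A on the same strand.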

How the data were processed

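RNA was measured in 12 libraries, 3 in each of 4 groups. The deposited values were whole-number counts of reads per gene and of back-splice junction reads per circle, per the file headers, 1 file of each kind per library. The submitters' processing notes name GRCh38, HISAT2 and StringTie without roles or versions; no source used here gives the counting step, the use of strand or the circle caller. Every listed gene had at least 7 reads over its compartment. Counts were tested with edgeR 4.0.16 in R 4.3.3 (quasi-likelihood F test, robust, trimmed mean of M-values scaling, filterByExpr set to min.count 10 and min.total.count 15), two-sided, with Benjamini-Hochberg adjustment over all genes tested and a threshold of 0.05. EGLN3, and in exosomes also PDK3, CA9 and ANKRD37, failed the filter or were not listed there. Fold changes are fitted values, with SE on the log2 scale. Exosomes and cells were compared on the 11940 genes listed in both, with 4 group means. CPM of single genes carry the same scaling over all 12 libraries, save those of ANKRD37, which were scaled within the cells. The counts of genes without overlap between Ang and Con used CPM scaled within each compartment. The summed marker CPM and the worth of 3 reads use raw library totals. Lengths and positions are from GENCODE release 29, promoter windows from RefSeq.

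The genes, the further gene lists and the tests were chosen with earlier results of these data known. Genes given by library were those with the 3 smallest p in each Ang comparison, up to 6 called higher and 6 lower in exosomes, 7 fixed genes and any with 0 reads in a library; of the further genes, up to 4 higher and 4 lower and 3 fixed ones. Alternatives were DESeq2 1.42.0, other scalings, no filter, a replicate block, 1 fit of all libraries, Con or Ang alone, a 2-fold threshold and leaving out each library. The isoform shares by all annotated exons and the values without low libraries were added after the data were seen. The fits were tested on simulated data. No small RNA was analysed here.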

Additional observations from a re-analysis of the deposited data

How the results depend on the processing

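For these genes, 0 calls in Ang against Con were made under every alternative run in cells and in exosomes. For all genes, DESeq2 called 60 in cells and 16 in exosomes; exosomes gave 3 without the filter, 0 with the replicate block and 22 in the fit of all 12 libraries. Leaving out 1 library gave 0 to 3 in cells and 1 to 4 in exosomes. Between exosomes and cells, the replicate block left 3 lower genes (HK2 and ALDOC did not pass), leaving out 1 library 2 to 5, the Con libraries alone 0 and the Ang libraries alone 1 lower and 6 higher; all genes called were 2395 in Con alone and 2126 in Ang alone, each from 6 libraries. At a fold of at least 2, 2691 genes were called, of which 5 higher and 1 lower were of this set. For the difference between compartments, DESeq2 called 368 genes and 1 of this set (PDK3), the replicate block 1 gene, and leaving out 1 library 1 to 17. PDK3 between exosomes and cells turned from -0.47 to 0.71 (SE 0.436) in the Ang libraries alone, and the LDHA share difference from 0.0331 to -0.114 percentage points with all annotated exons as length. Leaving out 1 library also changed which genes were tested, as given above. The causes were not tested. Same-numbered libraries did not deviate together (correlations of -0.0438 to 0.0166 across genes), so the numbers were not taken as pairs. Exosome depth, about 4 to 6 CPM for 3 reads, limits EGLN3, CA9, PDK3 and ANKRD37 most.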
